A study of Mus musculus with 6 samples.

Results

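ATP-binding cassette (ABC) transporter genes were described in cultured Prx1-lineage stromal cells of mouse long bones with floxed or unaltered alleles of Zeb1, a transcriptional repressor. The genes were taken by name: every protein-coding row of the expression table whose symbol is Abc, a subfamily letter from a to g, a number and at most 1 further letter. This gave 50 of 54532 genes: 16 of subfamily Abca, 10 each of Abcb and Abcc, 4 of Abcd, 1 of Abce, 3 of Abcf and 6 of Abcg. Tap1, Tap2 and Cftr are relatives with other names and lay outside the rule.

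The study compared 3 Zeb1Prx1 libraries (genotype Prx1-Cre+; ROSA-YFP; Zeb1fl/fl) with 3 WT libraries (genotype Prx1-Cre+; ROSA-YFP; Zeb1wt/wt), all from untreated cells of compact bone. Both genotypes thus carried the Cre driver, which acts in limb mesenchyme, and the fluorescent reporter by which cells were sorted after collagenase digestion of femur and tibia chips and culture. The labels state neither age nor sex, nor how many mice or cultures a library stands for. The p-values therefore reflect variation among these 6 libraries, which could be technical in part.

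ABC proteins share a pair of cytoplasmic domains that bind and hydrolyse ATP, and most use this energy to move a substrate across a membrane. Abca and Abcg proteins mainly handle sterols and phospholipids, Abcb proteins lipids, drugs and mitochondrial cargo, Abcc proteins organic anions and conjugates, and Abcd proteins fatty acids of peroxisomes and cobalamin. Abce and Abcf proteins have the ATPase domains without a membrane domain and act on ribosomes and translation. In macrophages, Abca1 and Abcg1 are known for cholesterol efflux to lipoproteins.

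Facts of the whole table bear on these genes. Libraries held 14724357 to 18354894 assigned fragments. FPKM (fragments scaled to gene length and library total) for Zeb1, the targeted gene, were 1.92, 1.59 and 2.84 in Zeb1Prx1 libraries 1 to 3, against 6.61, 10.3 and 7.12 in WT libraries 1 to 3. The stromal marker Prrx1 had 18.9 to 22.6 FPKM in Zeb1Prx1 and 18.1 to 30.5 in WT, and Col1a1 had 1560 to 3368 FPKM in Zeb1Prx1 and 1432 to 1829 in WT. Macrophage transcripts were present throughout although the label is stromal: 19 markers summed to 11702, 23511 and 13686 FPKM in Zeb1Prx1 libraries 1 to 3, and 14209, 17294 and 16217 in WT libraries 1 to 3. Lyz2 made up most of each sum, with 7034, 16368 and 9156 FPKM in Zeb1Prx1 and 8118, 10490 and 10017 in WT. Sex-linked transcripts differed: Xist had 1.47, 0.0031 and 12.6 FPKM in Zeb1Prx1 and 26.8, 40.4 and 32.9 in WT, and the Y-linked Ddx3y had 21.9, 20.9 and 14.6 in Zeb1Prx1 and 8.19, 4.45 and 8.004 in WT. Their part in the results was not tested. The 419 tested genes on the X chromosome had a median log2 change of 0.017 (12534 tested genes, 0.017). Every Zeb1Prx1 library lay below every WT library for 14.1% of these 419 genes, against 11.8% of all tested genes. Such values do not measure the part of sex in genes of other chromosomes. Zeb1Prx1 replicate 2 stood apart by gene length. Its median difference from the WT mean was 0.43 on the log2(FPKM + 1) scale for genes under 1 kb and -0.46 for genes over 8 kb, against 0.12 and -0.051 in Zeb1Prx1 replicate 1 and 0.21 and -0.15 in Zeb1Prx1 replicate 3. In WT libraries these medians lay between -0.026 and 0.028 for the short genes and between -0.051 and 0.050 for the long.

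The summed levels of the lipid, anion and peroxisomal transporters were lower in Zeb1Prx1 libraries, though no single gene passed the test, while the ABC genes of translation differed little in the mean. The summed level of all 50 genes was 279, 232 and 239 FPKM in Zeb1Prx1 libraries and 317, 329 and 298 in WT libraries, so no library of one genotype reached the other. By subfamily, the sum in Zeb1Prx1 was 0.597-fold that of WT for Abca, 0.64-fold for Abcc and 0.69-fold for Abcg. It was 0.763-fold for Abcb, 0.794-fold for Abcd, 0.909-fold for the single Abce gene and 1.04-fold for Abcf. These are bulk samples, in which fewer cells of a type and less RNA per cell cannot be told apart.

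**Figure D1:**
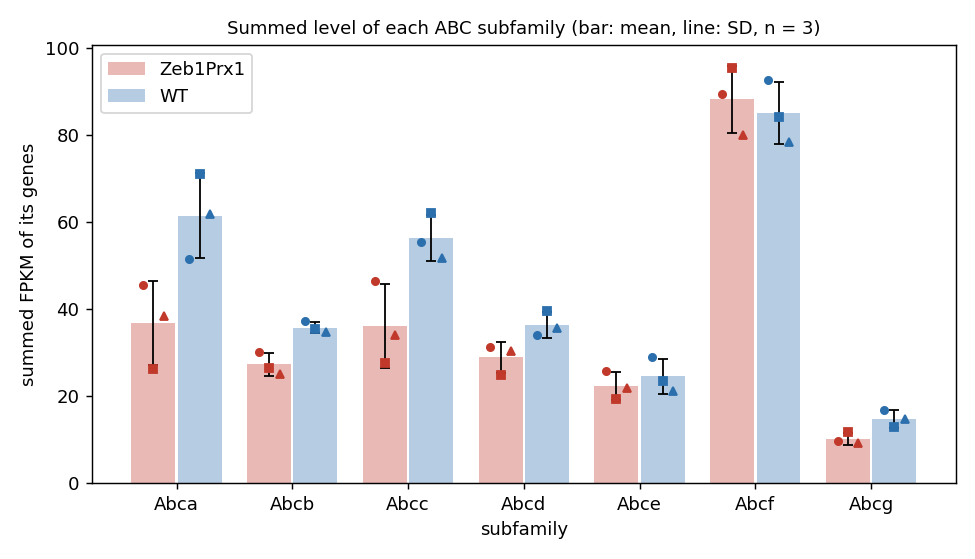
Summed FPKM of the genes of each ABC subfamily in Zeb1Prx1 (red, left) and WT (blue, right). Bars are means, lines SD (n = 3) and points single libraries; Abcf had the largest sum in both genotypes, with 88.4 ± 7.72 in Zeb1Prx1 and 85.2 ± 7.23 in WT.

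Of the 50 genes, 26 had at least 1 FPKM in at least 3 of the 6 libraries and were tested with limma on log2(FPKM + 1) across all 12534 genes that passed this filter. Of these 26, 25 had at least 1 FPKM in every library; the exception was Abca9. No ABC gene passed: 0 of 26 had a Benjamini-Hochberg adjusted p under 0.05 by limma, as did 0% of all tested genes, and none was called by voom fitted to fragment numbers. By limma's unadjusted p, 10 ABC genes were lower and 0 higher at 0.05, 38.5% of the 26 on the lower side, where 6.98% of all tested genes were lower and 8.15% higher. This count was 4 without WT replicate 2, 5 without Zeb1Prx1 replicate 3 and 14 by voom, where 3.66%, 4.14% and 9.49% of all tested genes were lower. Every Zeb1Prx1 library lay below every WT library for 10 ABC genes, against 11.8% of all tested genes, and above for 1, against 12.6%. The log2 change (Zeb1Prx1 minus WT) was below 0 for 20 of the 26 (48.1% of all tested genes), or for 25 of 26 when all libraries were brought to the same summed FPKM, with a median of -0.38 over the ABC genes and 0.017 over all genes.

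**Figure D2:**
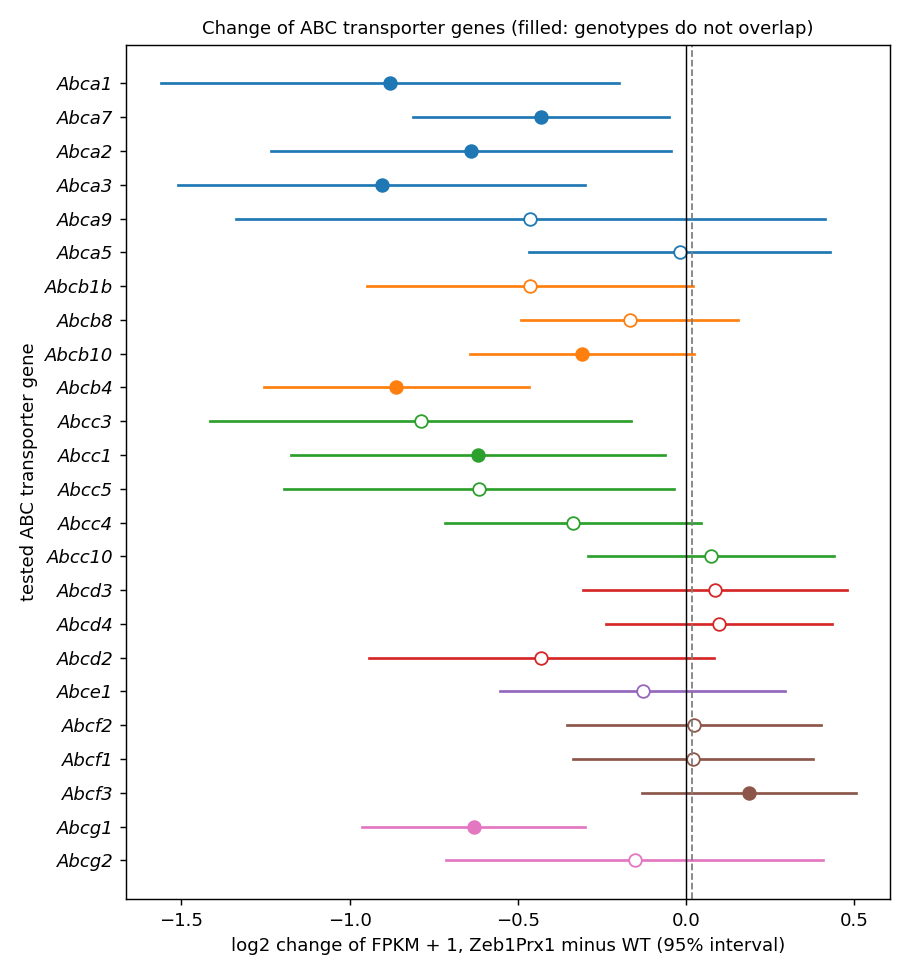
Log2 change of FPKM + 1, Zeb1Prx1 minus WT, for 24 of the 26 tested genes with 95% intervals from limma, coloured by subfamily; the dashed line is the median of all tested genes (0.017). Filled points mark genes whose genotypes do not overlap: 8 lower in Zeb1Prx1, from Abca3 (-0.90) to Abcb10 (-0.31), and Abcf3 (0.19) higher.

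Zeb1Prx1 replicate 2 and gene length moved with these counts. Of the 26 genes, 12 had their lowest value in that library, among them 6 of the 10 lower genes without overlap. Of the 26 tested ABC genes, 24 had a deposited length over 4 kb, as had 49.9% of all tested genes. The median log2 change of all tested genes was 0.29 at 1 to 2 kb, -0.068 at 4 to 8 kb and -0.21 over 8 kb. Among all 6249 tested genes over 4 kb, 18.6% lay lower without overlap, and among the 24 ABC genes of that length it was 10. With each library's length trend removed, an alternative chosen after seeing the data, 8 ABC genes had an unadjusted p under 0.05 all lower, against 6.997% of all tested genes. In that setting 9 ABC genes lay lower and 4 higher without overlap, against 11.02% and 11.7% of all tested genes, and the median over the 26 was -0.30. Abca1, Abcb4 and Abcc1 were then at -0.66, -0.66 and -0.31, and Abca3 and Abcg1 at -0.72 and -0.65.

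**Figure D3:**
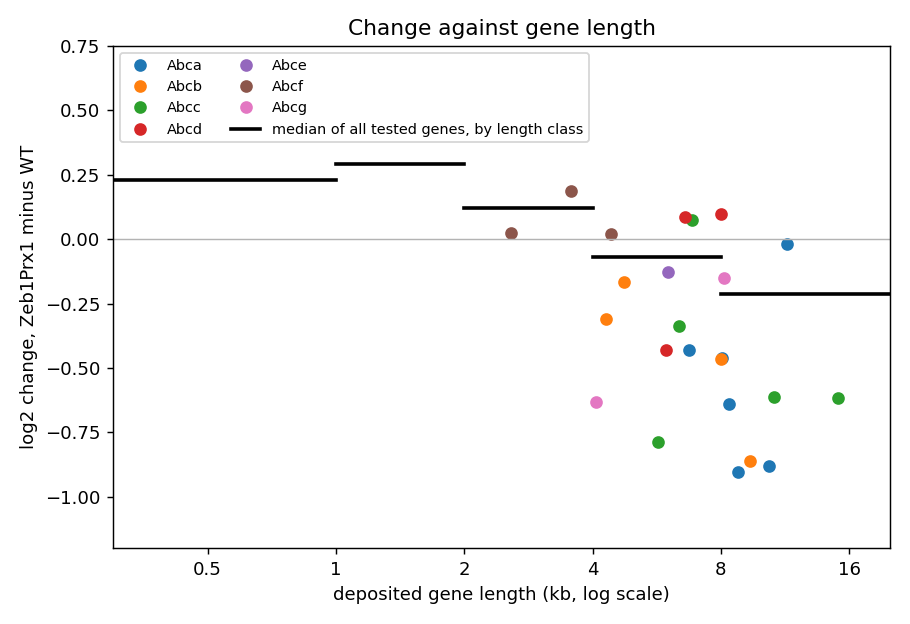
Log2 change, Zeb1Prx1 minus WT, of 24 of the 26 tested ABC genes (points, by subfamily) against deposited gene length in kilobases on a log axis. Black lines are medians of all tested genes in 5 length classes, from 0.23 under 1 kb to -0.21 over 8 kb; the 10 ABC genes over 8 kb run from Abca3 at -0.90 to Abcd4 at 0.10.

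Promoter sequence is shown for 5 genes on which the comparison turns: 4 that were lower without overlap, and Abcf3, the 1 gene higher without overlap. Each is the RefSeq window (GRCm38.p6, the mm10 assembly) from 250 bases before to 50 after the annotated start, 5′ to 3′ on the gene's strand. Capitals mark CACCTG or its reverse complement CAGGTG, the E-box form bound by Zeb1.
Abcb4, chr5:8893471-8893770, + strand: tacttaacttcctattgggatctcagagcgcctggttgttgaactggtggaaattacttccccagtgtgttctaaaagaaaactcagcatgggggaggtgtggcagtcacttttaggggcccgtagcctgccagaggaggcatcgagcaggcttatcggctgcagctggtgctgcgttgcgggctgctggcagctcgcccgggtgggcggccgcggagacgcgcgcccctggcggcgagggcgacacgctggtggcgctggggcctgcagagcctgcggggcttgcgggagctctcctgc
Abca1, chr4:53159846-53160145, - strand: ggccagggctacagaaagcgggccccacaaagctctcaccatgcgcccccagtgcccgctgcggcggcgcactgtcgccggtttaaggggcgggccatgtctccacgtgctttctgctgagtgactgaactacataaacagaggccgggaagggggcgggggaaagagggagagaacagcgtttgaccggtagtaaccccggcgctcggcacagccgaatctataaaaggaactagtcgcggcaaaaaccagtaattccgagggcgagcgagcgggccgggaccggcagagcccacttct
Abca3, chr17:24351773-24352072, + strand: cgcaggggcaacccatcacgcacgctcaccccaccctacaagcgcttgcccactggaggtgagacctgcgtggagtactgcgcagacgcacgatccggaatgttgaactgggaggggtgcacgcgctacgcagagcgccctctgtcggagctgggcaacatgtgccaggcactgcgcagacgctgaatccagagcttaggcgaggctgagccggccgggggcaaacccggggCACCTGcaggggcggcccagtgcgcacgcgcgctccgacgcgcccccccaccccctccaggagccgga
Abca2, chr2:25428349-25428648, + strand: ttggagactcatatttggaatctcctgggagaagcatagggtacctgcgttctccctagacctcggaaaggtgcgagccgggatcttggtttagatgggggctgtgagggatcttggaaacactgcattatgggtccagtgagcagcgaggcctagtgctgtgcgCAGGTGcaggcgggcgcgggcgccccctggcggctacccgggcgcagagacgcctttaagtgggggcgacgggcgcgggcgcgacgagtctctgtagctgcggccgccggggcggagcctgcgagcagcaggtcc
Abcf3, chr16:20548353-20548652, + strand: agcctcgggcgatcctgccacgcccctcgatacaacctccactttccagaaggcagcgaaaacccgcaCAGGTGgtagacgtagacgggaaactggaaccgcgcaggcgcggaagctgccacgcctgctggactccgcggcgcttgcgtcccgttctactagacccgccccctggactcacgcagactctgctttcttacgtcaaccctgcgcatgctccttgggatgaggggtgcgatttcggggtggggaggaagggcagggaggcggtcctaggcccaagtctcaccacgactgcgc
Abca1 and Abcb4 have no CACCTG on either strand of these windows, while Abca3 has it 18 bases before the start (position -18), Abca2 at -85 and Abcf3 at -182, counted at the first base of the match. The motif was found in windows of 3 of the 6 lower genes without overlap that have one (Abca2, Abca3 and Abca7), and of 5 of the 12 other tested genes with a window. Counted per gene, it was in at least 1 window of 15 of 38 ABC genes (39.5%), against 22.6% of all 27025 genes with a window. Windows of a gene or of divergent neighbours can overlap, and the 19 matches in ABC windows were 17 distinct sites. A match is a run of letters, not a binding site, and in the 5 windows shown no match overlapped one of another motif. GGGCGG, on either strand, was in 21 of the 45 ABC windows and 35.7% of all. Abca1, in which TATAAA lies at -29 and CACGTG at -147, was among the 15.6% of ABC windows with TATAAA and the 13.3% with CACGTG, against 13.6% and 7.15% of all windows.

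All 6 tested genes of subfamily Abca had log2 changes below 0, with a median of -0.55 (all tested genes 0.017). Of these, 4 lay lower without overlap, as did 11.8% of all tested genes and 18.6% of those over 4 kb. The 6 genes had deposited lengths of 6752 to 11437 bases. Abca3, which loads phospholipid into lamellar bodies of the lung (chromosome 17, 24351950 to 24410201, + strand, mm10), had 6.05, 2.66 and 5.29 FPKM in Zeb1Prx1 libraries 1 to 3, against 8.31, 9.75 and 9.64 in WT libraries 1 to 3. Values of the other genes are given in this order of libraries. Every Zeb1Prx1 library was below every WT library, with replicate 2 the lowest. Its log2 change was -0.90 (SE 0.26, 95% interval -1.51 to -0.30; limma adjusted p = 0.273). Abca1, the cholesterol exporter that builds high-density lipoprotein (chromosome 4, 53030787 to 53159895, - strand), had the highest level of the subfamily: 18.6, 9.03 and 15.97 FPKM in Zeb1Prx1 libraries and 22.2, 34.0 and 24.6 in WT libraries. The genotypes did not overlap, and the means stood at 0.539-fold (log2 change -0.88, SE 0.29; limma adjusted p = 0.286). Without Zeb1Prx1 replicate 2 the change of Abca1 was -0.59 and that of Abca3 -0.62.

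Abca2 and Abca7 followed. Abca2, an endolysosomal sterol transporter prominent in oligodendrocytes, had 7.06, 3.28 and 5.77 FPKM in Zeb1Prx1 and 7.53, 10.1 and 8.33 in WT. Its log2 change of -0.64 (SE 0.25; limma adjusted p = 0.318) was -0.38 without Zeb1Prx1 replicate 2, the library in which it was lowest. Abca7, a phospholipid transporter linked to phagocytosis, had 8.34, 8.53 and 7.27 FPKM in Zeb1Prx1 and 9.16, 12.6 and 12.1 in WT. In Abca7 replicate 2 was not the lowest, and its change was -0.43 (SE 0.16; limma adjusted p = 0.302), or -0.47 without that library. Abca5 and Abca9 belong to a run of 5 genes on chromosome 11, all on the - strand, with Abca6, Abca8a and Abca8b. Abca5 had 1.67 ± 0.443 FPKM in Zeb1Prx1 and 1.70 ± 0.323 in WT (SD, n = 3 each), with overlap. Abca9 ranged from 0.655 to 1.64 FPKM in Zeb1Prx1 and from 1.15 to 4.297 in WT. Its log2 change of -0.46 (SE 0.37) rested on WT replicate 3 and was -0.077 without that library.

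**Figure D4:**
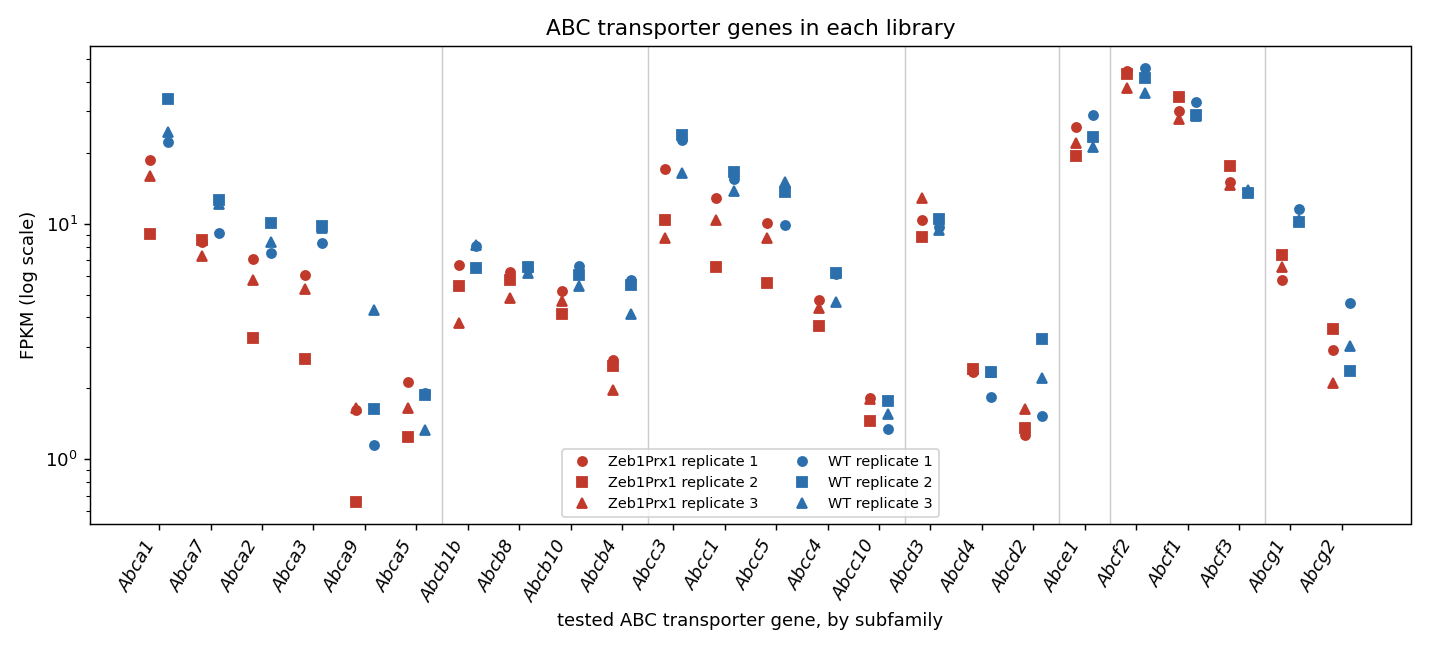
FPKM of 24 of the 26 tested ABC genes in Zeb1Prx1 (red, left of each tick) and WT (blue, right) on a log axis, with a symbol for each replicate number and lines between subfamilies. The red squares, Zeb1Prx1 replicate 2, are lowest for Abca1 (9.03), Abca2 (3.28) and Abca3 (2.66) but not for Abca7, Abcb4 or Abcg1.

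In subfamily Abcb the median log2 change was -0.31 over 5 tested genes. Of these, 3 lay lower without overlap (11.8% of all tested genes, 18.6% of those over 4 kb). Abcb4, the phosphatidylcholine floppase of bile (chromosome 5, 8893717 to 8959231, + strand), had 2.63, 2.48 and 1.97 FPKM in Zeb1Prx1 libraries and 5.74, 5.50 and 4.13 in WT libraries. The 3 Zeb1Prx1 libraries lay close together and all below WT, at 0.461-fold in the mean, the lowest ratio of any tested ABC gene (log2 change -0.86, SE 0.17, 95% interval -1.26 to -0.47). It did not pass (limma adjusted p = 0.258). Over all leave-one-out fits its change stayed between -0.98 and -0.78. Abcb1b and Abcb1a, which in mice encode the P-glycoprotein drug pumps, lie beside it on the same strand. Abcb1b had 6.69, 5.44 and 3.77 FPKM in Zeb1Prx1 and 8.06, 6.50 and 8.13 in WT, which overlapped (log2 change -0.46, SE 0.20; limma adjusted p = 0.337). Abcb1a was under the filter, with 1.20, 0.415 and 0.992 FPKM in Zeb1Prx1 and 0.837, 1.28 and 0.166 in WT, and its genotypes overlapped. These 2 are uncertain to the extent that reads were shared: 17.6% of the 50-base words in Abcb1a transcripts and 11.6% of those in Abcb1b occur in another gene, mostly each other, and 2.83% of those in Abcb4.

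Of the mitochondrial genes of the subfamily, Abcb10, an inner-membrane transporter important for haem synthesis, had 5.19, 4.15 and 4.71 FPKM in Zeb1Prx1 and 6.58, 6.07 and 5.46 in WT. Every Zeb1Prx1 library was below every WT library, with a log2 change of -0.31 (SE 0.14), and it did not pass (limma adjusted p = 0.346). Abcb8, a part of the mitochondrial ATP-sensitive potassium channel, had 5.60 ± 0.6998 FPKM in Zeb1Prx1 and 6.38 ± 0.21 in WT (SD, n = 3 each), with overlap.

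In subfamily Abcc, 4 of 5 tested genes had log2 changes below 0, with a median of -0.61, and the 3 most abundant had the lowest changes. Abcc3, an exporter of bile acids and glucuronides, had 17.1, 10.4 and 8.70 FPKM in Zeb1Prx1 libraries and 22.6, 23.9 and 16.5 in WT libraries. Zeb1Prx1 replicate 1 reached above WT replicate 3, so the genotypes overlapped (log2 change -0.79, SE 0.26; limma adjusted p = 0.29). Abcc1, the exporter of glutathione conjugates and leukotriene C4, had 12.8, 6.54 and 10.4 in Zeb1Prx1 and 15.5, 16.6 and 13.8 in WT, without overlap. Its log2 change of -0.62 (SE 0.24; limma adjusted p = 0.306) was -0.37 without Zeb1Prx1 replicate 2. Abcc5, an exporter of cyclic nucleotides and glutamate conjugates, had 10.1, 5.58 and 8.70 in Zeb1Prx1 and 9.84, 13.7 and 15.0 in WT, overlapping by 1 library on each side (-0.61, SE 0.24; limma adjusted p = 0.32), and at -0.39 without Zeb1Prx1 replicate 2. Abcc4, which exports prostaglandins and cyclic nucleotides, had 4.26 ± 0.538 in Zeb1Prx1 and 5.66 ± 0.885 in WT. Abcc10, a drug exporter, had 1.69 ± 0.206 in Zeb1Prx1 and 1.55 ± 0.213 in WT (SD, n = 3 each).

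In subfamily Abcd, 2 of 4 tested genes had log2 changes below 0, with a median of -0.17. Abcd3, which imports branched-chain acyl-CoA and bile acid precursors, had 10.7 ± 2.10 FPKM in Zeb1Prx1 and 9.87 ± 0.573 in WT (SD, n = 3 each). The lysosomal cobalamin transporter Abcd4 had 2.39 ± 0.0448 in Zeb1Prx1 and 2.18 ± 0.294 in WT, while Abcd2, a peroxisomal importer of very long chain fatty acids, had 1.42 ± 0.19 in Zeb1Prx1 and 2.32 ± 0.856 in WT. All 3 overlapped between genotypes. Abcd3 and Abcd4 had log2 changes of 0.087 and 0.099, which became -0.066 and -0.019 when all libraries were brought to the same summed FPKM.

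Subfamily Abcg was led by Abcg1, which moves cholesterol toward lipoprotein particles (chromosome 17, 31057698 to 31115777, + strand). It had 5.78, 7.38 and 6.57 FPKM in Zeb1Prx1 libraries and 11.6, 10.2 and 10.4 in WT libraries. All 3 Zeb1Prx1 libraries were below all WT libraries, replicate 2 was the highest of them, and the mean ratio was 0.614. Its log2 change was -0.63 (SE 0.14, 95% interval -0.96 to -0.30; limma adjusted p = 0.258), between -0.71 and -0.55 over the leave-one-out fits and -0.65 with the length trend removed. Abcg2, a drug and urate exporter, had 2.91, 3.57 and 2.11 in Zeb1Prx1 and 4.59, 2.38 and 3.04 in WT, and overlapped. With library weights, which gave Zeb1Prx1 replicate 2 the least weight (0.226), 4 ABC genes passed, all lower, among them Abcb4, Abcg1 and Abca3 (limma adjusted p = 0.0463, 0.0463 and 0.0498), beside 268 genes higher and 179 lower in all. Over the alternatives the adjusted p of these 3 ran from those values up to 0.54.

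The ABC genes of translation differed less. Abcf2, the most abundant ABC gene, had 44.4, 43.1 and 37.8 FPKM in Zeb1Prx1 libraries and 46.1, 41.7 and 35.8 in WT libraries. Abcf1, a factor of translation initiation, had 30.8 ± 3.53 in Zeb1Prx1 and 30.3 ± 2.36 in WT (SD, n = 3 each). Their log2 changes were 0.024 (95% interval -0.35 to 0.40) for Abcf2 and 0.021 (-0.33 to 0.38) for Abcf1, and -0.14 for each when all libraries were brought to the same summed FPKM. Abce1, the ribosome recycling ATPase, had 25.7, 19.4 and 22.0 in Zeb1Prx1 and 29.1, 23.4 and 21.2 in WT, with overlap (-0.13, SE 0.18, 95% interval -0.55 to 0.30). Abcf3 had 15.1, 17.7 and 14.6 FPKM in Zeb1Prx1 and 13.7, 13.5 and 13.9 in WT. All Zeb1Prx1 values of Abcf3 lay above all WT values by a small amount (0.19, SE 0.13; limma adjusted p = 0.492), whereas they overlapped after scaling to the same summed FPKM (0.027) and by voom (0.14). Abcf2 and Abcf3, at 2569 and 3558 bases, were the 2 tested ABC genes under 4 kb.

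**Figure D5:**
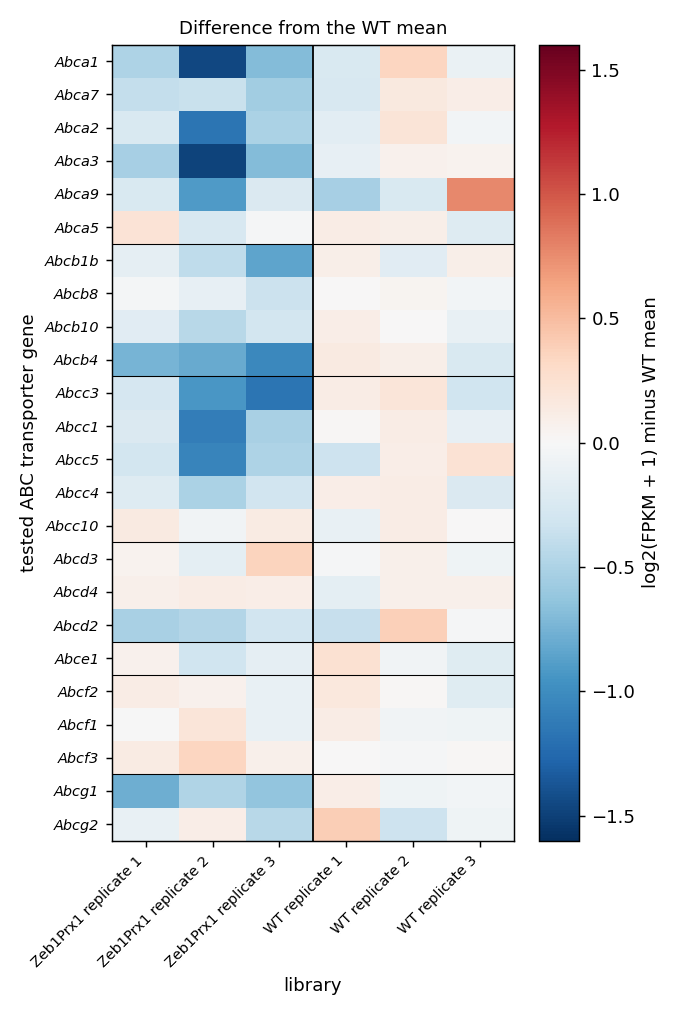
Log2(FPKM + 1) of 24 of the 26 tested ABC genes minus the gene's WT mean, in 3 Zeb1Prx1 libraries (left) and 3 WT libraries (right), with lines between subfamilies. The median over all 26 genes was -0.22, -0.43 and -0.32 in Zeb1Prx1 replicates 1 to 3 and 0.0047, 0.082 and -0.043 in WT replicates 1 to 3.

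The 24 genes under the filter had at most 1.41 FPKM in any library. Abca15, Abca16, Abcb5 and Abcc8 had 0 fragments in all 6 libraries, where a count of 0 allows up to 3 fragments per library, or 0.163 to 0.204 CPM of the assigned fragments; such limits cover counting error only. Abca8b, Abcb1a, Abcb9 and Abcg3 reached 1 FPKM in at least 1 library. Abcb9, a lysosomal peptide transporter, had 82, 73 and 121 fragments in Zeb1Prx1 and 37, 68 and 75 in WT (0.723 to 1.41 FPKM in Zeb1Prx1 and 0.361 to 0.872 in WT), with overlap. Abcc6, the gene of pseudoxanthoma elasticum, in which soft tissue calcifies, was the single gene of the 24 whose genotypes did not overlap. It had 3, 5 and 3 fragments in Zeb1Prx1 and 0 in each WT library. Set against 3 fragments over the WT group, this was 3.5-fold higher, which leaves out the counting error of the few Zeb1Prx1 fragments. With no filter, 8.01% of all 27230 genes lay higher without overlap and 8.19% lower. The bile salt pump Abcb11 and Abca14 had 1 and 2 fragments, all in WT replicate 3, and Abcc2 and Abcc12 had 5 and 3, in 2 WT libraries each. The other 10 detected genes had overlapping values: Abca4, Abca6, Abca8a, Abca12, Abca13, Abca17, Abcc9, Abcg4, Abcg5 and Abcg8. Abcb6, at 28 fragments in Zeb1Prx1 and 43 in WT, is uncertain, since 50.01% of its 50-base words occur in the overlapping model Gm29253.

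The wider pathways gave a mixed background, and 0 genes of these lists passed by limma over all genes. By limma's unadjusted p under 0.05, 6.98% of all tested genes were lower and 8.15% higher. Of genes for lipoprotein acceptors, lysosomal sterol release and storage, 11 of 15 were tested, 10 lay below 0 with a median log2 change of -0.38, and 3 were lower at an unadjusted p under 0.05. These were lipoprotein lipase Lpl (30.8 ± 5.13 FPKM in Zeb1Prx1, 51.8 ± 8.997 in WT), lysosomal acid lipase Lipa (143 ± 24.6 in Zeb1Prx1, 223 ± 13.4 in WT) and the lysosomal cholesterol exporter Npc1 (13.1 ± 4.59 in Zeb1Prx1, 20.3 ± 2.26 in WT). Of 11 tested regulators of sterol efflux, the median was -0.19, and 3 were lower at that p. Among them were the corepressor Ncor1 (9.15 ± 3.43 in Zeb1Prx1, 14.7 ± 2.10 in WT) and the sterol regulator Srebf2 (30.0 ± 6.79 in Zeb1Prx1, 41.3 ± 2.70 in WT). The genes of the liver X receptors that activate Abca1 and Abcg1, named after their values were seen, overlapped: Nr1h3 had 4.75 ± 0.927 in Zeb1Prx1 and 3.71 ± 0.847 in WT, and Nr1h2 had 29.2 ± 2.16 in Zeb1Prx1 and 27.6 ± 3.34 in WT.

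Lists for partners of the other subfamilies had medians from -0.0058 to 0.24. Their counts at an unadjusted p under 0.05 stand beside 6.98% of all tested genes lower and 8.15% higher. A single lower gene in a list is close to that share. Of 16 tested genes of haem and iron-sulfur synthesis, 13 lay above 0 with a median of 0.24, and Cpox and Uros, enzymes of haem synthesis, were higher at an unadjusted p under 0.05 (Cpox 7.15 ± 0.819 in Zeb1Prx1, 5.10 ± 0.365 in WT; Uros 4.03 ± 0.369 in Zeb1Prx1, 2.80 ± 0.469 in WT). Urod, of the same pathway, had 17.5 ± 5.46 in Zeb1Prx1 and 12.0 ± 0.237 in WT. Of 16 tested translation partners of Abce and Abcf, 12 lay above 0 (median 0.15), with Pelo and Hbs1l, which split stalled ribosomes together with Abce1, higher at that p. Pelo had 4.59, 5.48 and 4.42 FPKM in Zeb1Prx1 and 2.63, 2.72 and 2.93 in WT, and Eif2s3x, X-linked, was the 1 lower (18.1 ± 3.66 in Zeb1Prx1, 26.5 ± 3.25 in WT). Hbs1l had 10.7 ± 0.922 in Zeb1Prx1 and 8.06 ± 1.18 in WT. The 14 tested peroxisomal genes had a median of 0.06 and 1 lower, the oxidase Acox3 (7.17 ± 1.25 in Zeb1Prx1, 9.91 ± 1.01 in WT). Catalase, Cat, had 84.3 ± 14.5 in Zeb1Prx1 and 114 ± 11.4 in WT, and the import factor Pex14 3.36 ± 0.446 in Zeb1Prx1 and 2.52 ± 0.239 in WT. The 16 tested xenobiotic genes had a median of -0.0058 and 3 higher, Gstp1, Nqo1 (18.6 ± 11.9 in Zeb1Prx1, 6.93 ± 2.13 in WT) and Gss (4.94 ± 0.752 in Zeb1Prx1, 3.40 ± 0.725 in WT). Gstp1, which conjugates glutathione, had 75.2 ± 22.1 in Zeb1Prx1 and 39.9 ± 4.24 in WT. For peptide loading onto class I molecules the median was 0.16 over 10 genes, with the peptide trimmer Erap1 lower at that p (7.39 ± 0.604 in Zeb1Prx1, 9.38 ± 0.411 in WT). The loading factors Tapbp and Pdia3 had 113 ± 22.3 and 334 ± 54.2 in Zeb1Prx1, and 80.4 ± 11.1 and 253 ± 19.6 in WT. The ABC peptide transporter genes Tap1 and Tap2 had 8.20 ± 1.17 and 9.87 ± 2.78 in Zeb1Prx1, and 8.28 ± 1.59 and 8.73 ± 1.83 in WT. Values after ± in the lists are SD over 3 libraries of FPKM.

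Markers of other cells also differed in the mean. Counts at an unadjusted p under 0.05 stand beside 6.98% of all tested genes lower and 8.15% higher. Without overlap, 11.8% of all tested genes were lower and 12.6% higher. Of the 19 macrophage markers, all tested, 15 lay below 0 with a median of -0.32, and 6 were lower at an unadjusted p under 0.05 and did not overlap. Among them Adgre1 had 164, 119 and 117 FPKM in Zeb1Prx1 and 215, 230 and 250 in WT. Ratios of the means over the 19 ran from 0.575 to 1.19, with Lyz2, Tyrobp, Ctss and Aif1 above 1. In each of these, Zeb1Prx1 replicate 2 had the highest value of any library. Tyrobp had 222, 558 and 254 FPKM in Zeb1Prx1 and 267, 294 and 306 in WT. For Ctss the values were 618, 1378 and 707 in Zeb1Prx1 and 723, 949 and 673 in WT. Cd68 had 261 ± 12.8 FPKM in Zeb1Prx1 and 382 ± 6.20 in WT, and Cybb 47.2 ± 10.6 in Zeb1Prx1 and 82.0 ± 11.6 in WT. Of 6 tested osteoclast markers 3 were lower at that p, Tnfrsf11a and Atp6v0d2 among them, and Ctsk was higher (57.1 ± 8.64 in Zeb1Prx1, 34.1 ± 5.88 in WT). The 16 stromal markers, 14 of them tested, summed to 5699, 3467 and 6220 FPKM in Zeb1Prx1 and 2709, 3907 and 3688 in WT, and 9 of the 14 lay above 0 (median 0.30). At that p, 3 were lower (Fbln2, Pdgfrb and Thy1) and 2 higher (Twist1 and Lum). The 7 tested chondrocyte markers and the 10 tested osteoblast markers all lay above 0, with medians of 2.17 and 0.91. They were led by Col2a1, Acan and Col11a1 and by Ibsp, Omd and Dlx5, and Col2a1 had 539 ± 573 in Zeb1Prx1 and 3.62 ± 2.18 in WT. At that p, 5 of the 7 and 4 of the 10 were higher, and as many did not overlap. The 15 chondrocyte markers summed to 651, 201 and 2625 FPKM in Zeb1Prx1 and 34.4, 234 and 180 in WT, an overlap that rested on Comp (121, 78.3 and 965 in Zeb1Prx1; 3.13, 195 and 144 in WT). Of 5 tested adipocyte markers 4 lay below 0 (median -0.36), with Lpl and Cd36 lower at that p (Cd36 5.51 ± 2.12 in Zeb1Prx1, 13.7 ± 5.69 in WT). Of 9 endothelial markers, Vwf (1.22 ± 0.29 FPKM in Zeb1Prx1, 2.21 ± 0.442 in WT) and Eng were tested and Cldn5 was at 0; the sums of the 9 were 19.1, 11.7 and 13.7 FPKM in Zeb1Prx1 and 27.7, 19.7 and 23.6 in WT. Neutrophil and mast cell markers summed to at most 1.01 FPKM in any library, lymphocyte markers to at most 1.74, and the haemoglobin genes Hba-a1, Hba-a2 and Hbb-bt were at 0. The part of any of these cells in the transporter values was not tested.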

How the data were processed

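The authors deposited 1 table of FPKM for each gene and library; per the file headers it also holds names, positions and lengths of genes. The submitters' processing notes name mm10 as genome build. No source used here states the aligner, the counter or the use of strand, so overlapping or antisense genes cannot be told apart. Coordinates equal those of GENCODE M21 for 48 of the 50 ABC genes.

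The product of FPKM and length came in whole steps for all 127408 non-zero values (relative tolerance 1e-06), from which fragment numbers were recovered. The step implied a total 0.973 to 1.04 times the sum of fragments, so the deposited FPKM may carry a further scaling per library. The test was limma (3.58.1, under R 4.3.3) with an intensity trend on log2 of FPKM with a pseudocount of 1, Zeb1Prx1 minus WT, two-sided and without a block, adjusted by Benjamini-Hochberg over all 12534 tested genes at 0.05. Fold changes on this scale understate low genes. The closing section gives the alternatives, among them voom on fragments. The fit was tested on simulated data. Values in every library are given for tested genes without overlap, the highest gene of each subfamily, Abcb1a and Abcb1b, and genes under the filter that differ at least 4-fold without overlap; of each list the 3 genes with the smallest p are named. Other ABC genes with values, and the marker and partner genes in the text that fall outside this rule, were chosen after their values were seen. Members and lists were chosen with earlier results of these data known. Some genes of the family and of the lists enter the counts but are not reported here by name.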

Additional observations from a re-analysis of the deposited data

How the results depend on the processing

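With 3 libraries per genotype, no setting except library weights called an ABC gene after adjustment. Library weights called 4, with adjusted p of 0.0463 to 0.0498. The count at an unadjusted p under 0.05 (10) was 6 with the replicate block and 4 to 10 over the leave-one-out fits, and the count without overlap (11) was 12 to 17 over those fits, 17 being without Zeb1Prx1 replicate 1, where 43.2% of all tested genes did not overlap (24.4% with all 6 libraries). Deviations from the genotype mean correlated at 0.029, -0.41 and 0.080 between same-numbered libraries, and at -0.48 to 0.46 between libraries of unlike number. Whether libraries were handled in pairs cannot be told from these values. The median change of the tested ABC genes (-0.38) was -0.51 after scaling to the same summed FPKM, which moved the median of all genes to -0.12 from 0.017, so that relative to all genes it was -0.38 against -0.40. By voom it was -0.50, and over the leave-one-out fits -0.39 to -0.27, nearest 0 without Zeb1Prx1 replicate 2. With no filter, 46 genes entered, 33 lay below 0 and the median was -0.036, as 20 genes near 0 FPKM were added. Leaving out libraries kept 18 to 22 genes below 0 (20 in the reported fit).

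Signs turned only for genes near 0, none of which passed. After scaling to the same summed FPKM, Abcc10 was at -0.025, Abcd3 at -0.066, Abcd4 at -0.019, Abcf1 at -0.14 and Abcf2 at -0.14. With quantile normalization Abcf1 was at -0.089 and Abcf2 at -0.11, by voom at -0.036 and -0.033, and with library weights at -0.058 and -0.028, with Abca5 at 0.038. With the length trend removed Abca5 was at 0.23, Abcf2 at -0.12 and Abcg2 at 0.013. Leave-one-out ranges crossed 0 for Abca5 (-0.14 to 0.10), Abcd3 (-0.047 to 0.21), Abcf1 (-0.064 to 0.091), Abcf2 (-0.071 to 0.11) and Abcg2 (-0.32 to 0.047). The cause of these moves was not tested. Depth limits the 24 genes under the filter, which had at most 142 fragments in a library.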
